A study of Mus musculus with 4 samples.

Results

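Solute carriers are membrane proteins that move nutrients, ions, metals and metabolites across the plasma membrane and the membranes of organelles. The genes described here are those with a symbol of the form Slc, family number, a and member number and an FPKM of at least 1 in 1 or more of 4 lung libraries, with Slc26a4 and Slc34a2 left out. FPKM is the number of fragments per kilobase of transcript, scaled to the mapped fragments of the library, so levels can be set side by side between genes of a library. Between libraries they also depend on how the libraries were scaled. Of 23284 genes in the deposited tables, 329 had such a symbol. The 2 left out by name and 128 that stayed below an FPKM of 1 in every library were set aside, which left 199 transporter genes of 43 families. The genes were thus selected on their measured FPKM in these libraries, and the levels are given as a description.

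All 4 groups were lungs of C57BL/6 mice, with 1 library per group. Wild-type mice and IL22-/- mice, which lack interleukin-22, had been exposed to the allergen house dust mite (HDM) in sensitization and challenge phases, and RNA was made from lungs collected 48 h past the final dose. Wild-type mice without allergen received saline (PBS) or the recombinant cytokine IL-22 into the trachea, and lungs were taken 24 h later. The labels do not state sex, age, the design of the Il22 allele or whether a library holds a single animal or a pool. With 1 library per group no difference has a replicate check and no p-value was computed.

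Transport by these proteins is passive along a gradient, coupled to a sodium or proton gradient, or an exchange of one solute for another. Carriers of the inner mitochondrial membrane feed energy metabolism in every cell. In the lung, ion transporters help set the volume of the liquid that lines the airways and alveoli, and macrophages use metal transporters to withhold iron and manganese from engulfed microbes. IL-22 acts mainly on epithelial cells, through a receptor that signals by the transcription factor STAT3.

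The libraries were estimated at 24.8, 27.1, 19.9 and 28.6 M reads (M, mega) for the wild-type HDM, IL22-/- HDM, PBS and IL-22 lungs. Lung markers were present in every library: Sftpc, the surfactant protein C gene, was at 30749 to 37820 FPKM, and Scgb1a1 of club cells took 17.6 to 20.5% of the summed FPKM. Il22 was at 0.362 FPKM in the wild-type HDM library and was listed at 0 in the IL22-/- HDM library, as it was in both libraries without allergen. The pair with HDM and the pair without it were deposited as 2 tables, and a shared normalization is not stated. Differences were therefore taken only within a table, and levels across tables are set side by side without taking a difference.

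Few genes of any kind differed between the libraries of a pair by the rule given next. Among them were 1 transporter gene with HDM and 2 with PBS and IL-22. A gene was called higher or lower where its log2(FPKM + 1) differed by at least 1 and the mean FPKM of the pair was at least 1. With HDM, 190 transporter genes were measured by that filter. Slc5a1, the sodium-glucose cotransporter SGLT1, was lower in the IL22-/- library and none was higher. Among all 13285 measured genes 2.42% were lower and 0.549% higher. With PBS and IL-22, 188 were measured, of which Slc13a3, a sodium-dicarboxylate cotransporter, and Slc11a1, a metal transporter of phagosomes, were higher with IL-22 and none was lower. Among all 13233 measured genes 0.597% were higher and 0.189% lower.

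The rest of the genes lay close to the line of equal levels. The median log2(FPKM + 1) difference of the transporter genes was 0.04 in the HDM pair, with 109 above 0 and 81 below, and that of all genes was 0.03. In the PBS and IL-22 pair the median was 0.05, with 112 above 0 and 76 below, against 0.04 for all genes. The log2(FPKM + 1) difference stayed within that of a 1.5-fold change for 92.6% of transporter genes in the HDM pair and 97.9% in the other, against 90.4% and 97.6% of all genes. A difference of at least 0.5 was found for 9 transporter genes above 0 (4.74%) and 12 below (6.32%) in the HDM pair, where the shares of all genes were 5.09% and 8.08%. Between IL-22 and PBS there were 3 above (1.60%) and 2 below (1.06%), where the shares were 2.87% and 0.809%. These shares lie near those of all genes.

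**Figure D1:**
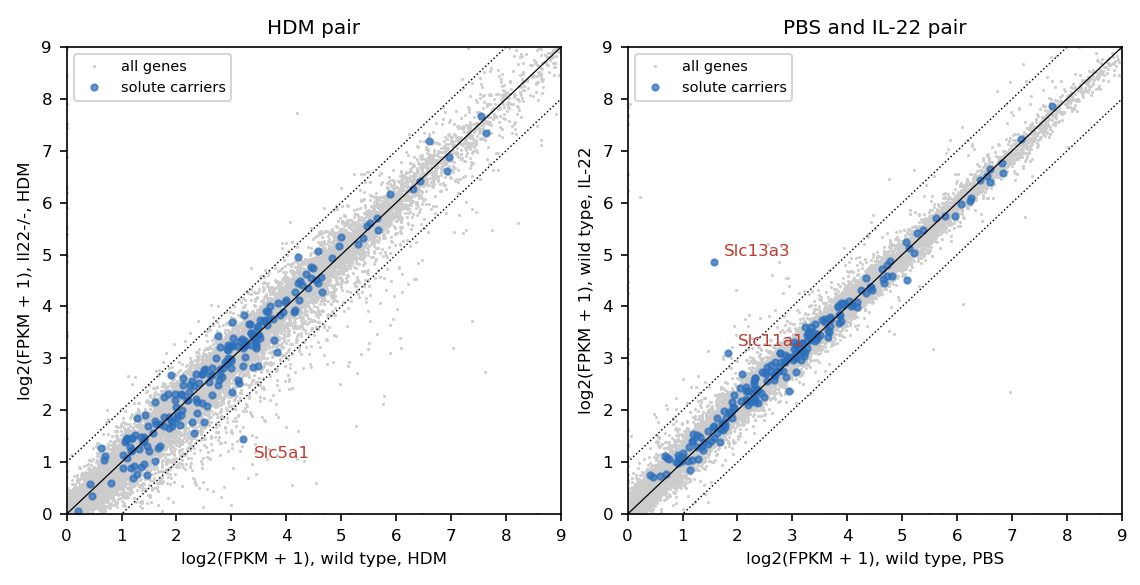
Level of each gene in the 2 libraries of a pair as log2(FPKM + 1), with the 199 transporter genes in blue and all genes in grey. The solid line marks equal levels and the dotted lines a difference of 1, and both axes end at 9. Slc5a1 lies below the band in the HDM pair, and Slc13a3 and Slc11a1 lie above it in the PBS and IL-22 pair.

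Slc13a3 (chromosome 2, 165405028 to 165473230 of mm10, minus strand, protein coding) encodes NaDC3, which carries succinate, alpha-ketoglutarate and other dicarboxylates into cells with sodium and is best known from kidney. Its level was 1.67 FPKM in wild-type lung with HDM, 0.943 in IL22-/- lung with HDM, 1.96 with PBS and 27.9 with IL-22. The IL-22 library thus stood apart from the other 3. The difference between IL-22 and PBS was 3.28 on the log2(FPKM + 1) scale, and the FPKM ratio was 14.2. In reads these levels were about 130 with PBS and 2649 with IL-22, and the exact binomial 95% interval of the ratio after depth was 11.9 to 17. That interval covers counting error only and compares these libraries, not the treatments. Slc13a3 ranked 13 from the top among the 13233 measured genes. In the HDM pair its difference was -0.46, with about 137 and 85 reads.

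The other members of the Slc13 family were low. Slc13a4, a sulfate transporter, was at 0.545, 1.43, 0.928 and 1.03 FPKM in the wild-type HDM, IL22-/- HDM, PBS and IL-22 libraries. Its difference was 0.65 in the HDM pair, from about 44 and 125 reads, and 0.07 between IL-22 and PBS. It did not pass the mean filter in either pair. Slc13a2, the dicarboxylate transporter of kidney and gut brush borders, was at 0.663, 0.239, 0.151 and 0.295 FPKM. Slc13a5, the citrate transporter of liver, was at 0.247 and 0.0238 FPKM in the HDM libraries, listed at 0 with PBS and at 0.0225 with IL-22. Slc13a1, the renal sulfate transporter, was at 0.0174 FPKM in the wild-type HDM library and listed at 0 in the others. None of these other Slc13 genes had a mean of 1 FPKM with PBS and IL-22, so the size rule could not call them. For Slc13a2 the estimate was about 7 reads with PBS and 19 with IL-22. Its ratio was 1.96, with a counting interval of 0.759 to 5.31.

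The neighbours of Slc13a3 on chromosome 2 lay near 0. Of the genes within 250 kb on either side, 7 were measured in the PBS and IL-22 pair, with differences from -0.03 to 0.23. The highest of these was Slc2a10, a glucose transporter 30557 bases away and itself one of the 199 genes, at 1.25 FPKM with PBS and 1.64 with IL-22. Several genes that mark kidney were at or near 0. Kap was listed at 0 in all 4 libraries, and Miox, Umod, Cubn, Pax8 and Aqp2 were below 0.5 FPKM in each. Cdh16 was at 4.61 FPKM with PBS and 2.75 with IL-22, a difference of -0.58.

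Slc11a1 (chromosome 1, 74375195 to 74386062, plus strand, protein coding) encodes NRAMP1, known as a pump of divalent metals out of the phagosomes of macrophages and neutrophils. These data hold RNA levels only, and transport by NRAMP1 in these mice was not measured. Slc11a1 was at 3.17 FPKM in wild-type lung with HDM, 2.29 in IL22-/- lung with HDM, 2.54 with PBS and 7.63 with IL-22. The difference between IL-22 and PBS was 1.29, an FPKM ratio of 3.01 from about 107 and 462 reads (2.43 to 3.74 by counting error). Slc11a2, the related iron transporter DMT1 of many cell types, was at 6.96, 6.77, 7.41 and 7.75 FPKM, so the 2 members of the family differed in pattern in these libraries. The 13 measured neighbours of Slc11a1 within 250 kb had differences of -0.29 to 0.12 between IL-22 and PBS.

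Markers of macrophages were set beside Slc11a1. Of 13 measured monocyte and interstitial macrophage markers 4 were higher with IL-22 and none lower, 10 lay above 0, and the median difference was 0.79. Their summed level was 316 FPKM with PBS and 521 with IL-22. Emr1, the F4/80 antigen, was at 5.21 FPKM with PBS and 23.3 with IL-22, whereas Cd68 was at 75.5 and 64.7. In the HDM pair 8 of the 13 were lower in the IL22-/- library, and their sum was 535 FPKM in wild type and 194 without IL-22, while Slc11a1, at -0.34, was not past the size rule. Alveolar macrophage markers had no called member with IL-22 and a median of -0.21 over 10 genes. Neutrophil markers, 7 measured, had a median of -0.11. In whole lung, more cells of a type and more RNA per cell cannot be told apart, and the part of cell numbers in the Slc11a1 and Slc13a3 values was not tested.

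Slc5a1 (chromosome 5, 33104219 to 33162870, plus strand, protein coding) encodes SGLT1, which takes up glucose and galactose with sodium at the apical face of epithelia. Its level was 8.29 FPKM in wild-type lung with HDM, 1.73 in IL22-/- lung with HDM, 1.43 with PBS and 1.07 with IL-22. The wild-type HDM library was the high one, and the other 3 lay near each other. The difference between the HDM libraries was -1.76, an FPKM ratio of 0.209 from about 801 and 184 reads (0.178 to 0.247 by counting error). Slc5a1 ranked 89 from the bottom among the 13285 measured genes. Between IL-22 and PBS the difference was -0.23.

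Around Slc5a1, 7 neighbours within 250 kb were measured, with HDM differences from -0.83 to 0.09. The lowest was Spon2, which encodes a secreted matrix protein, at 7.62 FPKM in wild type and at 3.84 in the IL22-/- library. Club and goblet cell markers were lower in the same library in 4 of 10 measured genes, with a median of -0.97, and none was higher, while 4 lay above 0. The 4 lower genes were Agr2, Clca3, Muc5ac and Spdef, known from goblet cells. Those above 0 were the secretory genes Cyp2f2 (0.70), Scgb3a2 (0.48), Scgb3a1 (0.06) and Scgb1a1 (0.03). Alveolar type II markers had a median of 0.24 over 8 genes and ciliated cell markers a median of -0.20 over 6. The part of these cells in the Slc5a1 difference was not tested.

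The 250 bases before the RefSeq start of these genes (GRCm38.p6, the assembly called mm10) are shown because they are the only transporter genes past the size rule. Capitals mark CACGTG, the E-box.

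Slc13a3, chr2:165473198-165473447, minus strand: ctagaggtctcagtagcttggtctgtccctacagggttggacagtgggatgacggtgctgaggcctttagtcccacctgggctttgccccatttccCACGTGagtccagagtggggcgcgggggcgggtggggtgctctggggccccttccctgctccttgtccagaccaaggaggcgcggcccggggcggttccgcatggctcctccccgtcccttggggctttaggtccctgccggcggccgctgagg

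Slc11a1, chr1:74374953-74375202, plus strand: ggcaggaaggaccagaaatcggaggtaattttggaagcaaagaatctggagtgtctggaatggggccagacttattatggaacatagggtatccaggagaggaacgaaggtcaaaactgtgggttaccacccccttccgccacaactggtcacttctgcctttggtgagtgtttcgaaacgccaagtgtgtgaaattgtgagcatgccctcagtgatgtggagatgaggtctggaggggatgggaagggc

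Slc5a1, chr5:33103969-33104218, plus strand: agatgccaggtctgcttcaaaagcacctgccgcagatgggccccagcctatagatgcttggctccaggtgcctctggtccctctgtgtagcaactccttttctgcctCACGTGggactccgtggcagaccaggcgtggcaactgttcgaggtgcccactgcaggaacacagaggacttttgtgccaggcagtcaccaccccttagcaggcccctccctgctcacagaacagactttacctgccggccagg

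Both strands were searched for TTCNNNGAA, the core read by STAT factors, the same arms TTC and GAA with 4 letters between them, read by STAT6, TGANTCA of AP-1 and CACGTG. None of the 3 windows held the STAT or AP-1 letters, which are in 7.02%, 5.85% and 6.75% of all 32851 promoter windows of that length. The Slc13a3 and Slc5a1 windows each held 1 CACGTG, beginning 154 and 143 bases before the start, and 6.02% of all windows hold it. These matches describe the letters of the windows. The Slc13a3 window had 67.6% G or C, that of Slc5a1 60.0% and that of Slc11a1 51.2%. The median was 52.4% over all promoters and 60.8% over transporter promoters. Promoters of only 148 of the 199 genes were matched, under 80%, so the shares of transporter windows do not cover all the transporter genes.

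Levels spanned more than the differences did. Over the mean of the 4 libraries, 116 of the 199 genes were at 5 FPKM or more, 62 at 10 or more, 11 at 50 or more and 5 at 100 or more, with a median of 6.57. The summed level of all transporter genes was 2541 and 2616 FPKM in the wild-type and IL22-/- HDM libraries and 2789 and 2817 with PBS and IL-22. The 12 highest genes made up 42.1 to 44.1% of that sum. Across the 199 genes the log2(FPKM + 1) levels of the 2 libraries of a pair had a Pearson r of 0.97 with HDM and 0.98 with PBS and IL-22. Genes are not independent replicates, and the wide range of levels sets much of this value.

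**Figure D2:**
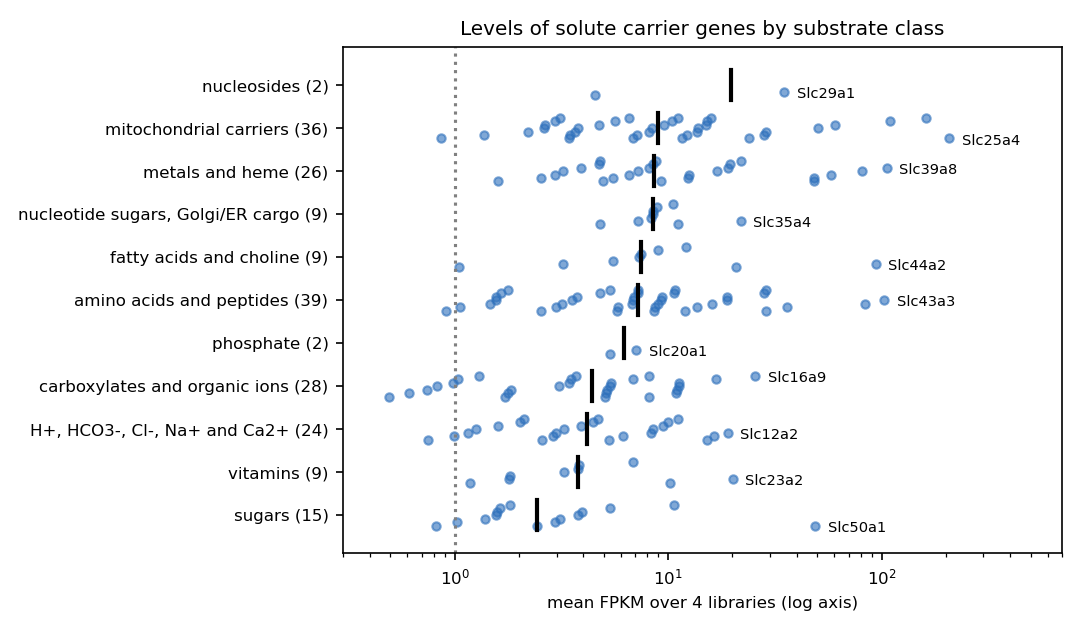
Mean FPKM over the 4 libraries (log axis) of each transporter gene by substrate class, with the number of genes in parentheses, the class median as a black bar and the highest gene named. The dotted line marks an FPKM of 1. Mitochondrial carriers reach 208 FPKM, and the sugar class, set by family number, has the lowest class median, 2.43.

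Mitochondrial carriers, the Slc25 family, were the most abundant class, with 36 of 44 symbols at 1 FPKM or more and 31.6 to 33.9% of the summed transporter FPKM. Slc25a4 and Slc25a5, which exchange ADP for ATP across the inner membrane, were the highest genes. Slc25a4 was at 184 and 202 FPKM in the wild-type and IL22-/- HDM libraries and at 211 and 232 with PBS and IL-22. Slc25a5 was at 198, 160, 142 and 149 FPKM in the same order and exceeded Slc25a4 only in the wild-type HDM library. Its processed pseudogene Slc25a5-ps is annotated, so reads can be shared between the copies. Slc25a3, the mitochondrial phosphate carrier, was at 120, 97.2, 112 and 108 FPKM, a HDM difference of -0.31. Slc25a39, a glutathione carrier, was at 49.4, 51.4, 74.7 and 67.2 FPKM, and Slc25a1, the citrate carrier, at 38.3, 35.8, 66.1 and 62.0. Markers of heart muscle, a tissue rich in Slc25a4, summed to 395 and 151 FPKM with HDM and to 772 and 1132 with PBS and IL-22, and their part was not tested. These abundant carriers stayed well inside the size rule in both pairs.

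In the HDM pair 4 mitochondrial carriers differed by at least 0.5 in size. Slc25a33, a pyrimidine nucleotide carrier, was at 2.72 FPKM in the wild-type HDM library and 5.39 in the IL22-/- library, a difference of 0.78, the highest of all transporter genes in that pair. With PBS and IL-22 it was at 6.68 and 4.15 FPKM, a difference of -0.58. Slc25a26, which imports S-adenosylmethionine, was at 2.05 and 3.49 FPKM in the HDM libraries (0.56) and at 3.55 and 3.32 in the others. The carriers of unassigned substrate Slc25a43 and Slc25a35 went the other way with HDM. Slc25a43 was at 1.76 and 0.684 FPKM, a difference of -0.71 from about 40 and 17 reads, for a ratio of 0.389 with a counting interval of 0.206 to 0.700. Slc25a35 was at 13.2 and 7.72 FPKM (-0.70) and at 13.2 and 14.9 with PBS and IL-22. Slc25a36, another pyrimidine nucleotide carrier, was at 8.34 FPKM with PBS and 11.1 with IL-22 (0.38). Of the 36 carriers 22 lay above 0 and 14 below in the HDM pair.

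Amino acid and peptide transporters formed the largest class, with 39 of 65 symbols at 1 FPKM or more and 19.2 to 21.4% of the summed level. Slc43a3, whose protein carries purine nucleobases although its family is that of amino acid transporters, was at 95.5 FPKM in the wild-type HDM library and 145 in the IL22-/- library, a difference of 0.60. With PBS and IL-22 it was at 84.8 and 85.4 FPKM. Slc3a2, the CD98 heavy chain that partners several amino acid exchangers, was at 78.5, 76.3, 96.4 and 83.1 FPKM. Slc7a5, a light chain among several, was at 4.17, 2.85, 3.71 and 3.44 FPKM, far below the heavy chain in each library. The 9 genes of the Slc7 family together summed to 46.7, 38.8, 47.2 and 51.3 FPKM.

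Slc7a1, the arginine and lysine transporter CAT1, was at 3.98 FPKM in wild type and at 1.96 in the IL22-/- library, a difference of -0.75, the lowest after Slc5a1. Slc7a2, the CAT2 transporter that supplies arginine to activated macrophages, was at 10.1 and 6.21 FPKM (-0.63) in the HDM libraries and at 5.44 and 5.30 with PBS and IL-22. Neither reached the size rule, and other carriers of cationic amino acids differed by -0.22 (Slc7a7), -0.01 (Slc7a6) and 0.33 (Slc6a14). Slc38a1, a glutamine transporter, was at 7.04 and 4.08 FPKM with HDM (-0.66), and Slc15a3, a peptide and histidine transporter of lysosomes in immune cells, at 7.83 and 4.76 (-0.62). Slc1a1, a glutamate transporter, was at 9.57 and 6.16 FPKM with HDM (-0.56) and at 6.42 and 5.25 with PBS and IL-22 (-0.25). Monocyte and interstitial macrophage markers had a median of -1.31 in the HDM pair, with 8 of 13 measured genes lower and none above 0. Alveolar macrophage markers had a median of -0.10 in that pair, with 2 of 10 measured genes lower and 1 higher, and T cell markers had a median of -0.63. The lower alveolar genes include Chi3l3, at 2438 FPKM in wild type and at 367 in the IL22-/- library. The higher one was Fabp1, at 8.74 and 18.8 FPKM, and 3 of the 10 lay above 0. Their part in these differences was not tested.

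Other genes of this class lay above 0 in the HDM pair. Slc6a2, placed in the class by its family number, encodes the noradrenaline transporter of sympathetic nerves and lung endothelium. Slc6a2 was at 8.39 FPKM in wild type and at 13.2 in the IL22-/- library (0.60), and at 7.33 and 7.04 with PBS and IL-22. Over the class 23 genes lay above 0 and 15 below, with 2 at 0.5 or more and 5 at -0.5 or less. In the PBS and IL-22 pair the class was narrower, with 1 gene past 0.5. That was Slc36a4, a high-affinity proline and tryptophan transporter, at 3.22 FPKM with PBS and 5.52 with IL-22 (0.63). Slc43a1, a transporter of large neutral amino acids, was at 2.22 and 1.63 FPKM (-0.30), and Slc38a5, a glutamine transporter, at 27 and 22.9 (-0.23).

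Metal and heme transporters had 26 of 33 symbols at 1 FPKM or more and 19.3 to 19.7% of the summed level. Slc39a8, the zinc and manganese importer ZIP8, was the highest, at 123 and 117 FPKM in the wild-type and IL22-/- HDM libraries and at 92.2 and 90.8 with PBS and IL-22. Slc48a1, which moves heme out of lysosomes, was at 58.3, 70.4, 96.1 and 98.9 FPKM. Slc39a7, which releases zinc from the endoplasmic reticulum, was at 45, 48.1, 74.4 and 64.6 FPKM. Of the 11 zinc importer genes of the Slc39 family, Slc39a14 and Slc39a3 had the lowest and highest differences in the HDM pair, and the other 9 lay between -0.28 and 0.31. Slc39a14, the zinc and iron importer ZIP14, was at 4.67 FPKM in wild type and at 2.41 in the IL22-/- library, a difference of -0.73, and at 2.07 and 2.62 with PBS and IL-22. Slc39a3, the importer ZIP3, was at 5.77 and 9.76 FPKM (0.67) and at 8.07 and 8.86. Slc41a2, a magnesium transporter, was at 3.89 and 2.43 FPKM with HDM (-0.51). Slc40a1, the iron exporter ferroportin, was low in all libraries, at 1.28 to 1.77 FPKM.

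Transporters of carboxylates and organic ions had 28 of 67 symbols at 1 FPKM or more. The Slc22 family of organic cation and anion transporters, prominent in liver and kidney, had 8 of 25, and the monocarboxylate family Slc16 had 11 of 14. Slc16a9 was the highest of the class, at 17.5 FPKM in wild-type lung with HDM, 29.998 in IL22-/- lung with HDM, 33 with PBS and 21.7 with IL-22. Its differences were 0.74 and -0.59, so it was lower in wild type than in the IL22-/- library with HDM, and lower with IL-22 than with PBS. Slc25a33 had the same order, and these genes had the 2 highest differences of the HDM pair and the 2 lowest of the other. Slc16a11, another member of the monocarboxylate family, was at 7.10, 11.9, 25.4 and 22.9 FPKM, with differences of 0.67 and -0.14. Slc16a6 was at 2.25 and 1.48 FPKM with HDM (-0.39) and at 1.27 and 1.91 with PBS and IL-22 (0.36). Slc17a9, a nucleotide transporter of vesicles, was at 2.04 and 1.04 FPKM with HDM (-0.57). The lactate transporter genes Slc16a1 and Slc16a3 had HDM differences of -0.42 and -0.21.

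**Figure D3:**
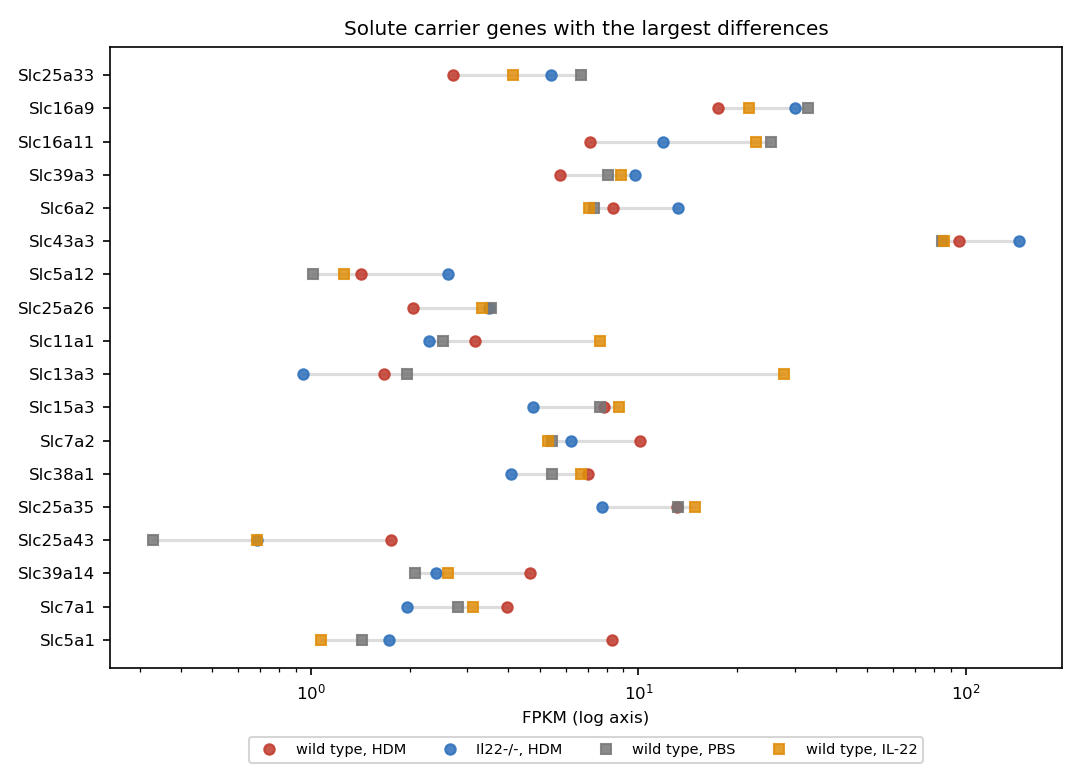
FPKM (log axis) in each of the 4 libraries for the 8 highest and 8 lowest transporter genes of the HDM pair and the genes past the size rule in either pair. Slc13a3 reaches 27.9 only with IL-22, Slc5a1 reaches 8.29 only in the wild-type HDM library, and Slc16a9 and Slc25a33 are lowest in that library.

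In the sugar transporter class 15 of 28 symbols were at 1 FPKM or more. The class was set by family number, so not every gene in it carries a sugar. Slc50a1, a sugar transporter of the Golgi and plasma membrane, was at 43.2, 45.9, 53.9 and 52.7 FPKM, and Slc2a1, the glucose transporter GLUT1 of most cells, at 9.95, 8.17, 11.9 and 12.5. Slc5a12, a sodium-coupled lactate transporter of the same family as Slc5a1, was at 1.43 FPKM in wild type and at 2.61 in the IL22-/- HDM library (0.57), the opposite direction from Slc5a1. Slc2a4, the insulin-responsive GLUT4 of fat and muscle, was at 1.33 and 0.906 FPKM with HDM and at 3.12 and 4.38 with PBS and IL-22 (0.38). Fat cell markers were higher with IL-22 in 5 of 8 measured genes, with sums of 220 and 489 FPKM, and smooth muscle markers in 3 of 9, with sums of 560 and 1091. With HDM the sums were 144 and 61.2 FPKM for fat cells and 692 and 478 for smooth muscle. Their part in the Slc2a4 values was not tested.

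Ion transporters for protons, bicarbonate, chloride, sodium and calcium showed small differences. Of 47 symbols 24 were at 1 FPKM or more, and all 22 measured in each pair stayed within 0.5. Slc12a2, the NKCC1 cotransporter that loads chloride into secreting epithelia, was at 22.3 and 21.9 FPKM with HDM and at 15.4 and 16.3 with PBS and IL-22. The largest differences with IL-22 were those of Slc9a9, a sodium-proton exchanger of endosomes, at 2.85 FPKM with PBS and 3.91 with IL-22 (0.35), and Slc24a3, a potassium-dependent sodium-calcium exchanger, at 5.83 and 7.62 (0.34). Slc4a1, the band 3 anion exchanger of red cells, was at 0.349 and 0.487 FPKM with HDM and at 1.15 and 1.02 with PBS and IL-22. Erythroid markers were higher in the IL22-/- HDM library in 4 of 8 measured genes, with sums of 6068 and 13006 FPKM. Slc25a37, the mitochondrial iron importer abundant in red cell precursors, was at 5.90 and 5.99 FPKM in those libraries.

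The remaining classes held few genes and no difference past 0.6 in size. Slc44a2, a choline transporter-like protein, was at 85 and 85 FPKM with HDM and at 113 and 93.7 with PBS and IL-22 (-0.26). Slc44a4, which carries choline and thiamine pyrophosphate, was at 7.70 and 4.996 FPKM with HDM (-0.54). Slc27a3, of the fatty acid transport family, was at 7.38 FPKM with PBS and 5.64 with IL-22 (-0.33). Slc29a1, the nucleoside transporter ENT1, was at 22.8 FPKM in wild type and at 32.7 in the IL22-/- HDM library (0.50), and at 40.8 and 43.7 with PBS and IL-22. For vitamin C, Slc23a2 was at 18.4, 20.3, 19.3 and 22.4 FPKM. Among Golgi carriers with a symbol of the form used here Slc35a4 was the highest, at 17.7, 20.9, 23.7 and 25.4 FPKM. All 9 genes of that class stayed within 0.3. Carriers with another form of symbol, such as Slc35c2, were not included. The phosphate transporter Slc20a1 was at 8.23, 6.24, 7.03 and 6.85 FPKM. No member of the urea (Slc14), concentrative nucleoside (Slc28), vesicular GABA (Slc32) or multidrug extrusion (Slc47) families reached 1 FPKM.

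**Figure D4:**
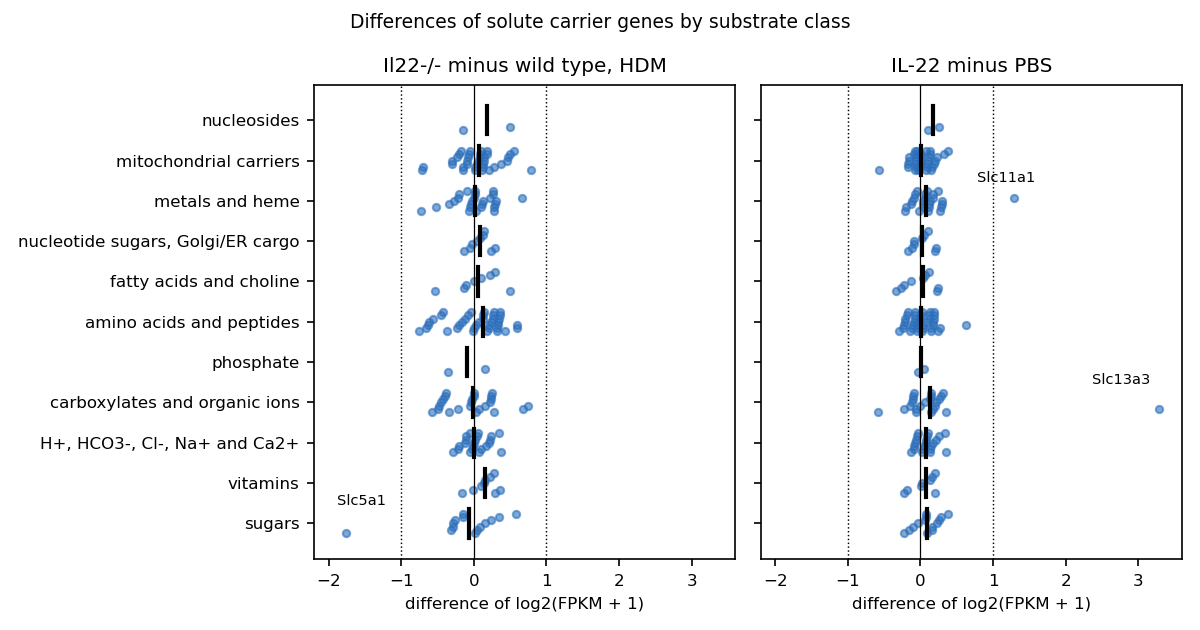
Difference of log2(FPKM + 1) for each measured transporter gene by substrate class, IL22-/- minus wild type with HDM (left) and IL-22 minus PBS (right), with class medians as black bars and the size rule of 1 as dotted lines. Slc5a1 lies at -1.76 on the left, Slc13a3 at 3.28 and Slc11a1 at 1.29 on the right, and the class medians lie near 0.

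Of 184 transporter genes measured in both pairs, 101 (54.9%) had differences of opposite sign in the IL22-/- and the IL-22 comparison, and of all 12902 such genes 51.6% did. The Pearson r between the differences over the 184 genes was -0.21 and Spearman's rho -0.20. Without Slc5a1, Slc11a1 and Slc13a3 these were -0.26 and -0.20. The comparisons share no library, genes are not independent points, and most of these differences are small, so the values are a description only.

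Genes that set the gradients for transport, or that pair with transporters, were examined as lists. Of 12 measured sodium pump subunits and their FXYD regulators 1 was lower in the IL22-/- HDM library and none higher, with a median of 0.01. That gene was Fxyd4, a regulator of the pump in kidney and colon epithelium, at 8.81 FPKM in wild type and at 0.626 in the IL22-/- library (-2.59), and at 0.287 and 0.199 with PBS and IL-22. It was therefore high in the same library as Slc5a1. Fxyd3 was at 85.2 and 58.1 FPKM with HDM (-0.55). Of 10 measured airway ion and water channels 1 was lower, the aquaporin Aqp3 at 2.59 and 0.796 FPKM with HDM, a difference of -1.0 at the edge of the size rule.

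The other partner lists had no gene past the size rule in either pair. Among 20 proton pump subunits the lowest with HDM was Atp6v0d2, a subunit of macrophages and osteoclasts, at 36.7 and 20.9 FPKM (-0.79). Among 12 measured partner and scaffold genes Slc9a3r2, a scaffold of apical transporters, was at 185 FPKM in wild type and at 309 in the IL22-/- library (0.74). Of 5 measured organic anion transporting polypeptides Slco2a1, the prostaglandin transporter of lung endothelium, was at 68.2 and 92.2 FPKM with HDM (0.43). In the PBS and IL-22 pair the largest partner difference was that of the aquaporin Aqp4, at 2.41 and 4.25 FPKM (0.62), and Scnn1a, the alpha subunit of the epithelial sodium channel, was at 152 and 114 (-0.42).

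At the threshold of 1 FPKM, the genes just inside were Slc22a21, Slc22a14, Slc4a1, Slc18a2 and Slc6a15, with highest values of 1.05, 1.13, 1.15, 1.15 and 1.17 FPKM. Just outside were Slc37a2, Slc10a5, Slc39a2, Slc2a13 and Slc25a34, with highest values of 0.932, 0.900, 0.881, 0.864 and 0.836 FPKM. Of the 199 genes 179 were at 1 FPKM or more in all 4 libraries and 5 in a single library. Of the 9 genes not measured in the HDM pair and the 11 not measured in the other pair by the mean filter, none is counted in the calls above.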

How the data were processed

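The deposited values are FPKM per gene from 4 lung RNA libraries in 2 tables. Per the submitters' processing notes the tools were Cufflinks 2.2.1, TopHat2 and CASAVA 1.8.2, with the genome mm10. Their settings, and whether libraries were scaled to each other, are not stated here. Per the labels' protocols, RNA came from frozen lungs.

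Tables were joined on symbol and accession (23746 rows), and rows of a symbol were added. Members, lists and rules were chosen with earlier results of these data known. Named genes were those past the size rule, the 8 largest differences each way, the 12 highest levels, the highest of each class, the threshold neighbours, the Slc13 family and partner genes among the 3 largest differences of their list. A few others were named after their values were seen. Depth was estimated from whole-read steps of low FPKM values, with transcript length less 200 bases, in transcripts over 600 bases. Of 1355 to 1404 low values per library, 66.0 to 68.7% fell at most 0.1 from a whole number of reads (20% by chance). Coordinates are from GENCODE M21 and promoters from RefSeq, both on GRCm38. Slc24a6 is now Slc8b1, and 8 genes that now have such a symbol under another name were not included. The steps were tested on simulated data. Tools were matplotlib 3.10.9, scipy 1.17.1, pandas 2.3.3, numpy 2.4.6 and Python 3.11.15.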

Additional observations from a re-analysis of the deposited data

How the results depend on the processing

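Alternative settings were size rules of 1.5 and 0.5, a minimum mean FPKM of 5 or none, a pseudocount of 0.1, the highest row of a symbol, and rescaling of each pair to equal totals or by its median ratio. Slc5a1, Slc13a3 and Slc11a1 stayed past the size rule of 1 under each pseudocount, scaling, filter and row setting. With a pseudocount of 0.1 the count of lower transporter genes in the HDM pair was 2, the added gene being Slc25a43. With a size rule of 0.5 the HDM pair had 12 lower and 9 higher, and the PBS and IL-22 pair 2 lower and 3 higher. With a size rule of 1.5 the latter had 1 higher, Slc13a3. The median difference ran from 0.02 to 0.06 in the HDM pair and from 0.01 to 0.14 in the other, the top being equal totals, which moved the median of all genes to 0.13. Counts of genes above and below 0 move with such scaling. No paired analysis was possible because each group has 1 library. Read numbers rest on an estimated depth and on 1 transcript length per gene.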
